A study of Mus musculus with 15 samples.

Results

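The genes of the cellular response to low oxygen followed here across liver tumors of mice were Hif1a, Epas1, Egln1, Egln3, Vegfa, Adm, Car9, Bnip3, Ankrd37 and Ndrg1. They were chosen by name, as all probes on the array that carry 1 of these symbols and are not control probes, which gave 17 of 55681 probes and 10 of 23999 named genes. Total RNA of whole tumor tissue had been labelled with Cy3 and hybridised to Agilent mouse arrays, with 1 array per tumor and 15 arrays in all. The groups were 5 hepatocellular carcinomas (HCC) of p53f/f mice, which carry a floxed Trp53 gene that was not deleted, 5 HCC of p53LKO mice, which lack p53 in the liver, and 5 intrahepatic cholangiocarcinomas (ICC, the bile duct form of liver cancer) of p53LKO mice. All mice had received the liver toxin carbon tetrachloride (CCl4) at 0.5 µl per g of body weight, by injection in olive oil, and the tumors are labelled as taken after 16 weeks of this treatment. The labels give an interval of 3 days between injections, and the methods of the study give a different schedule. The labels give no age and do not name the Cre line, and every control carried the floxed allele and the toxin as well, so that no normal liver and no untreated tumor was among these samples. The study reports that tumor formation was delayed in p53f/f mice, so the ages of the groups may differ. Age and time since the toxin cannot be told apart from genotype here, and the loss of p53 below names only the comparison of the HCC groups. Mouse 3717 gave 2 of the p53f/f HCC, and the mice 3731, 3733, 3976 and 5283 each gave 1 HCC and 1 ICC.

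In cells with enough oxygen, prolyl hydroxylases mark the alpha subunits of the hypoxia-inducible factor (HIF) on proline residues, and the von Hippel-Lindau protein Vhl then delivers them for degradation. When oxygen falls the mark is not set, the alpha subunit joins its partner Arnt, and the pair binds short DNA motifs with the core ACGTG or GCGTG near its target genes. Because the alpha subunits are governed mainly through the stability of the protein, their mRNA says little about their activity, and target genes are the usual readout. In liver tissue oxygen falls along the path of the blood from the portal to the central vein, and solid tumors often outgrow their supply. Many of the targets also answer to other signals, among them growth factors, inflammation and p53 itself.

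A level is given as the log2 of the processed signal of a probe minus the 75th percentile of its array, so that 1 unit is 2-fold and the sign says only on which side of that percentile the probe lies. Each gene is given by its brightest probe and the other probes beside it. A gene was called higher or lower at a Benjamini-Hochberg adjusted p under 0.05 over all probes in limma together with a change of more than 2-fold. Between 55.1% and 70.1% of the probes of a p53f/f HCC array were well above background, against 37.0% to 62.1% in p53LKO HCC and 42.5% to 47.0% in ICC. The p53f/f HCC all lay in the upper row of their slide and the ICC all in the lower row, while 3 p53LKO HCC lay in the upper and 2 in the lower row. Slide 1 held 4 p53f/f HCC, 2 p53LKO HCC and 1 ICC, and slide 2 held 1, 3 and 4 of them. The marker genes of hepatocytes, 10 of 10, were well above background on all arrays of each group, ICC included. Their summed log2 level ran from 11.6 to 12.5 in p53f/f HCC, from 11.3 to 11.7 in p53LKO HCC and from 9.77 to 11.0 in ICC, and that of 10 biliary markers from 2.37 to 4.90, from 4.02 to 4.81 and from 6.11 to 7.19. The biliary markers Muc1 and Onecut1 were well above background on none of the ICC arrays. The single probe labelled Trp53 stood at -1.01 ± 0.28 (SD, n = 5) in p53f/f HCC, -3.09 ± 0.46 in p53LKO HCC and -3.07 ± 0.70 in ICC, but the array annotation places it on chromosome 17 of mm9, which holds a Trp53 pseudogene, so whether it measured the deleted gene is not settled. In whole tissue, fewer cells of a type and less RNA per cell cannot be told apart.

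The genes did not move as a block. With the loss of p53 in HCC only Ndrg1 among the 10 was called, as higher, where 5.22% of all 17630 tested genes were called higher and 10.7% lower. Between ICC and HCC of p53LKO mice, Car9 and Egln3 were called higher and Epas1 lower, against 13.1% higher and 15.2% lower among 16765 genes. Between p53LKO ICC and p53f/f HCC, Ndrg1 and Egln3 were called higher and none of the 10 lower, against 10.9% and 11.9% of 17563 genes. That last comparison changes genotype, tumor type and row of the slide together, so these cannot be told apart in it. The slide largely differs too, with 4 of 5 p53f/f HCC on slide 1 and 4 of 5 ICC on slide 2. Each pair of comparisons shares a group of arrays, so that the Ndrg1 calls rest on the same p53f/f HCC and the Egln3 calls on the same ICC.

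Without the limit on the fold change, 2 of the 10 genes had an adjusted p under 0.05 with the loss of p53 (29.3% of all tested genes), 5 in ICC against HCC of p53LKO mice (47.6%), among them Egln1, whose probe was well above background in 0 of 5 ICC, and 6 in ICC against p53f/f HCC (37.0%). The arrays of the groups did not overlap for 1, 3 and 3 of the genes, against 19.3%, 30.8% and 27.4% of all tested genes. The shares of the 10 genes lay on either side of those of the whole array, and the widest gap was that of 6 of 10 against 37.0%. The median log2 fold change of the 10 genes was 0.03, 0.13 and 0.13 in the order of the comparisons, beside 0.07, -0.18 and -0.17 over all tested genes.

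**Figure D1:**
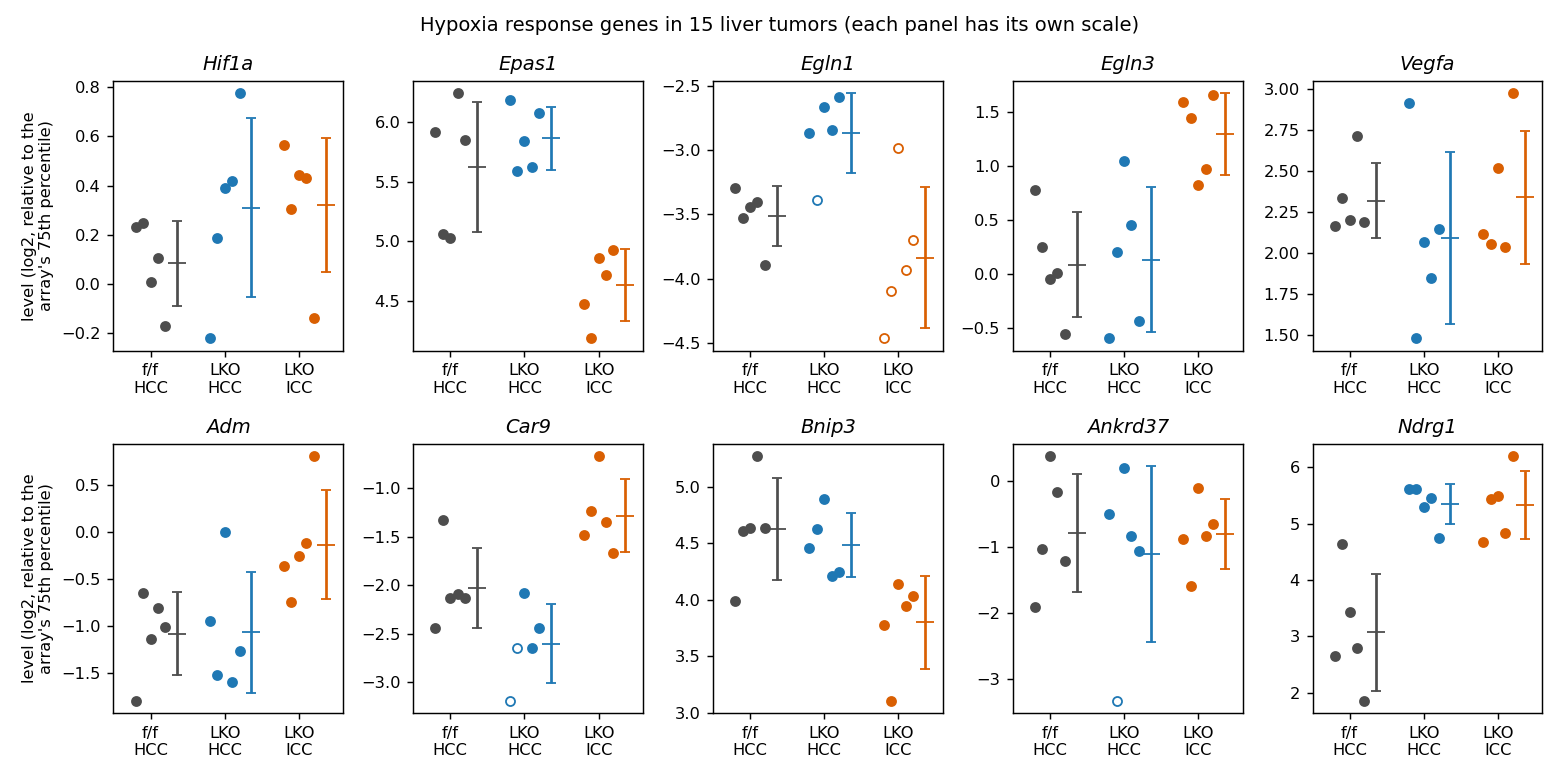
Level of each of the 10 genes in every tumor (log2 processed signal relative to the 75th percentile of the array, brightest probe). Points are arrays, lines are group means with SD, and open points are arrays on which the probe was not well above background. The Ndrg1 levels of p53f/f HCC, 1.85 to 4.64, lie below those of both p53LKO groups, and the Epas1 levels of ICC, 4.19 to 4.93, lie below those of both HCC groups.

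**Figure D2:**
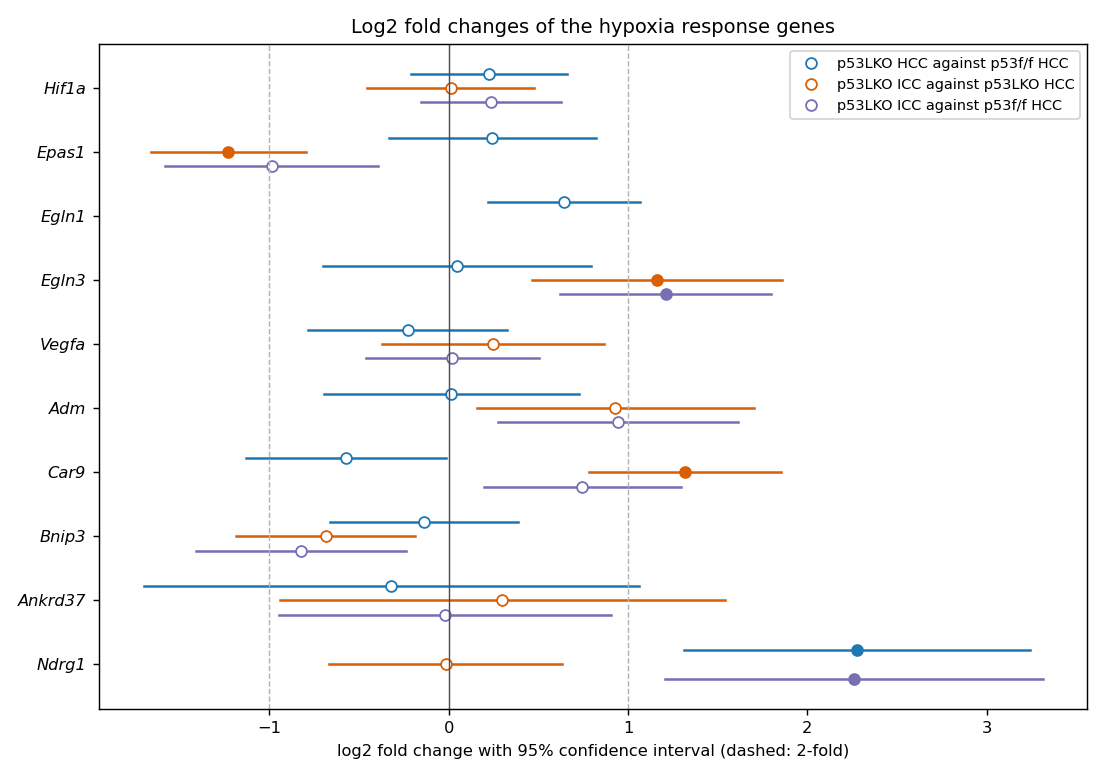
Log2 fold change of each gene with its 95% confidence interval in the 3 comparisons, with filled symbols for called genes. No fold change is drawn for Egln1 in comparisons with ICC, where its probe was well above background on 0 of 5 arrays. The changes of the called genes run from -1.23 for Epas1 to 2.28 for Ndrg1.

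Of the alpha subunits, Epas1 (HIF-2 alpha, the form that is prominent in endothelium and in hepatocytes, where it takes part in the control of erythropoietin, iron and lipid genes) was lower in ICC than in HCC, while for Hif1a (HIF-1 alpha, the subunit found in nearly all cells) no difference was detected. The Epas1 probe lies at chr17:87232615-87232674 of mm9. Its group means were 5.62 ± 0.54 in p53f/f HCC, 5.86 ± 0.26 in p53LKO HCC and 4.63 ± 0.30 in ICC (SD, n = 5 each). Tumor by tumor, the p53LKO HCC had 6.19 in mouse 3976, 5.59 in 5283, 5.84 in 3731, 5.63 in 3733 and 6.08 in 3975. The ICC had 4.47 in mouse 3731, 4.19 in 3733, 4.86 in 3976, 4.72 in 3977 and 4.93 in 5283. The p53f/f HCC had 5.92 in mouse 3681, 5.07 in 3715, 5.03 in 3716, and 6.24 and 5.85 in the 2 tumors of mouse 3717. Each ICC lay below each HCC of either genotype, and the 2 HCC groups overlapped widely.

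Epas1 in ICC was 0.426 times its level in HCC of p53LKO mice, with a log2 fold change of -1.23 (SE 0.20, 95% confidence interval -1.66 to -0.80, limma adjusted p = 0.000795; exact permutation test, 2-sided, p = 0.00794, the smallest that 5 against 5 arrays allow). Against p53f/f HCC the log2 fold change of ICC was -0.99 (SE 0.27, limma adjusted p = 0.0175), just short of the 2-fold limit. Between the HCC groups it was 0.24 (SE 0.26, adjusted p = 0.50). The difference between ICC and HCC of p53LKO mice was -1.42 within slide 1, where a single ICC leaves no test, -1.17 within slide 2 and -1.26 within the lower row. It stayed under the 2-fold limit with quantile normalization (-0.72) and when the percentile was taken only over probes well above background on each of the arrays (-0.86).

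The 3 Epas1 probes did not move equally. Between ICC and HCC of p53LKO mice the second probe gave a log2 fold change of -0.40 (adjusted p = 0.0826) and the third -1.60 (adjusted p = 0.00131). With the loss of p53 the second probe gave -0.41 (adjusted p = 0.058), on the other side of 0 from the brightest. Summed hepatocyte markers were lower in each ICC than in each p53LKO HCC, as Epas1 was, and the part of the tissue composition in the Epas1 difference was not tested. The summed level of 10 endothelial markers overlapped, with 3.60 to 5.60 in p53LKO HCC and 3.81 to 5.20 in ICC.

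**Figure D3:**
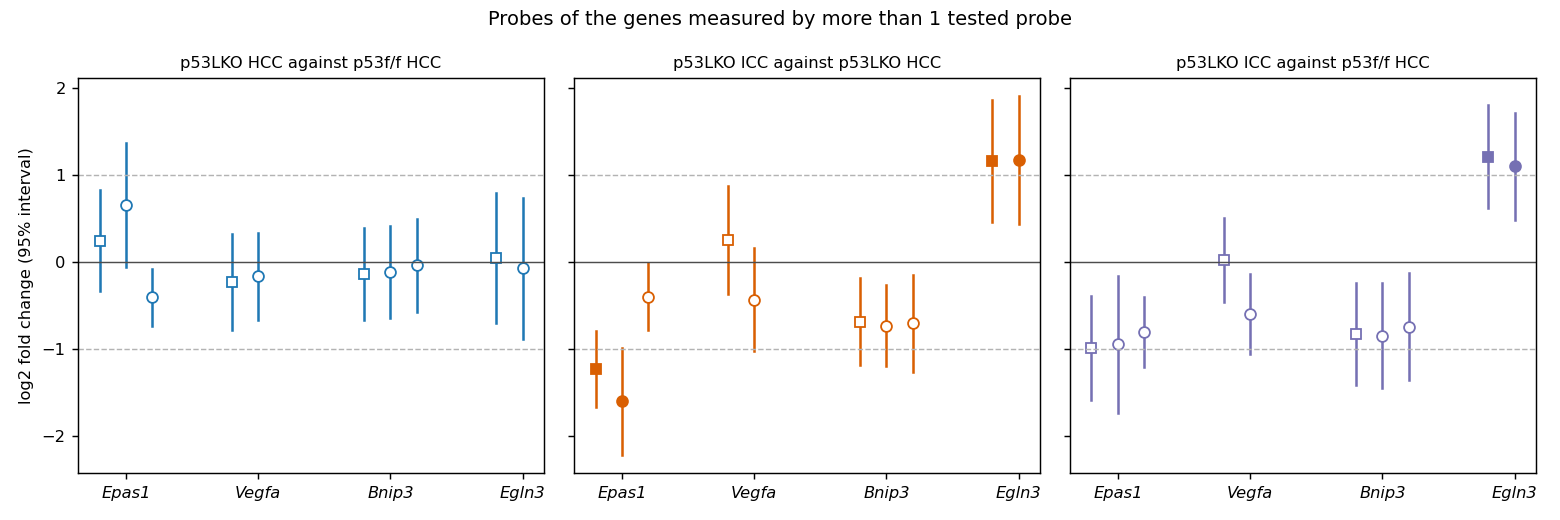
Log2 fold change with its 95% confidence interval for every probe of the genes with more than 1 tested probe, in the 3 comparisons. Squares are the brightest probe, filled symbols are called probes and dashed lines mark 2-fold. The probes of Egln3 and Bnip3 lie together in ICC against HCC, while those of Epas1 spread from -1.60 to -0.40.

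Hif1a ran from -0.17 to 0.25 in p53f/f HCC, from -0.22 to 0.78 in p53LKO HCC and from -0.14 to 0.57 in ICC, so that all 3 groups overlapped. The group means were 0.08 ± 0.17, 0.31 ± 0.37 and 0.32 ± 0.27 (SD, n = 5 each). The log2 fold change was 0.23 with the loss of p53 (95% confidence interval -0.21 to 0.66, limma adjusted p = 0.40) and 0.01 in ICC against HCC of p53LKO mice (-0.46 to 0.48, adjusted p = 0.97). With this scaling the intervals leave out a 2-fold change of the probe in either direction. Scaled to the spike-in probes, Hif1a was at 0.96 with the loss of p53 (adjusted p = 0.00535), close to 2-fold, where the median over all genes was 0.80. A second Hif1a probe was well above background on 1 of 15 arrays and was not tested.

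The prolyl hydroxylases Egln1 (PHD2, the main oxygen sensor of most cells) and Egln3 (PHD3, itself a HIF target that feeds back on the pathway) differed in how well they could be measured. Egln3 rose in ICC, while no fold change of ICC can be given for Egln1. The group means of Egln3 were 0.09 ± 0.49 in p53f/f HCC, 0.13 ± 0.67 in p53LKO HCC and 1.29 ± 0.38 in ICC (SD, n = 5 each). Its probe, at chr12:55280953-55281012 of mm9, read 1.59 in the ICC of mouse 3731, 1.44 in 3733, 0.82 in 3976, 0.97 in 3977 and 1.65 in 5283. In the p53LKO HCC it read -0.60 in mouse 3976, 0.20 in 5283, 1.04 in 3731, 0.45 in 3733 and -0.44 in 3975. In the p53f/f HCC it read 0.78 in mouse 3681, 0.25 in 3715, -0.05 in 3716, and 0.01 and -0.56 in the tumors of mouse 3717. All 5 ICC lay above all p53f/f HCC, and 3 of 5 lay above all p53LKO HCC.

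The Egln3 rise was 2.24-fold against HCC of p53LKO mice, with a log2 fold change of 1.16 (SE 0.32, 95% confidence interval 0.46 to 1.86, limma adjusted p = 0.0131; exact permutation p = 0.0238). It was 2.31-fold against p53f/f HCC, with a log2 fold change of 1.21 (SE 0.27, limma adjusted p = 0.00654; exact permutation p = 0.00794). The second probe gave 1.17 and 1.10. Between the HCC groups the log2 fold change was 0.05 (adjusted p = 0.93). Against HCC of p53LKO mice it was 1.78 within slide 1, where a single ICC leaves no test, 1.49 within the lower row and 0.87 within slide 2 (adjusted p = 0.114). That call was also lost without the HCC of mouse 3976 (0.98, adjusted p = 0.029) by its size and in the Mann-Whitney test (adjusted p = 0.072).

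Egln1 was dim. The software called its probe well above background in 5 of 5 p53f/f HCC, in 4 of 5 p53LKO HCC and in 0 of 5 ICC. Levels ran from -3.90 to -3.29 in p53f/f HCC and from -3.39 to -2.59 in p53LKO HCC, where 4 of 5 arrays lay above all p53f/f HCC. The log2 fold change of 0.64 (SE 0.19, limma adjusted p = 0.026; exact permutation p = 0.0159) was under 2-fold. The size depended on the scaling. Egln1 passed both limits with quantile normalization (1.24, adjusted p = 0.00108) and with spike-in scaling (1.38, adjusted p = 0.000797), and was at 0.40 (adjusted p = 0.135) with the percentile over probes bright on each array and at -0.05 with normexp background correction. In ICC the measured mean was -3.84 ± 0.55 (SD, n = 5), which lies too near the background to give a fold change. Its processed signals there (17.8 to 52.6) overlapped those of p53f/f HCC (20.1 to 25.2).

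For the secreted factors, no call was made. Vegfa, the growth factor that drives the sprouting of blood vessels, had means of 2.32 ± 0.23 in p53f/f HCC, 2.09 ± 0.53 in p53LKO HCC and 2.34 ± 0.41 in ICC (SD, n = 5 each), and its ranges overlapped in all groups. The log2 fold change was -0.23 with the loss of p53 (95% confidence interval -0.78 to 0.33) and 0.25 in ICC against HCC of p53LKO mice (-0.37 to 0.87). The other Vegfa probe (chr17:46162376-46162435 of mm9) gave -0.17 and -0.43, and in ICC against p53f/f HCC it gave -0.60 (limma adjusted p = 0.0447), with all 5 ICC below all p53f/f HCC.

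Adm encodes adrenomedullin, a peptide that widens vessels and guards the vessel wall. Its levels ran from -1.80 to -0.65 in p53f/f HCC, from -1.60 to -0.01 in p53LKO HCC and from -0.74 to 0.80 in ICC. The log2 fold change in ICC was 0.93 against HCC of p53LKO mice (SE 0.35, limma adjusted p = 0.0503) and 0.94 against p53f/f HCC (SE 0.30, adjusted p = 0.0345), both under 2-fold. The first of these passed both limits without the HCC of mouse 3731 (1.19, adjusted p = 0.0094) or without the ICC of mouse 3733 (1.08, adjusted p = 0.040). In p53LKO against p53f/f HCC the value was 0.01 (adjusted p = 0.98).

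Among 12 genes for the other ligands and the receptors of these factors, none was called with the loss of p53. In ICC against HCC of p53LKO mice 3 of 11 tested genes rose and 2 fell. The risers were Ramp3 (log2 fold change 3.07, adjusted p = 0.00337) and Ramp1 (2.70, adjusted p = 0.000225), accessory proteins that turn the calcitonin receptor-like receptor into a receptor for adrenomedullin or for its relative CGRP, and Nrp2, a co-receptor of VEGF (1.72, adjusted p = 0.00973). Those that fell were Flt4, the VEGF-C receptor of lymphatic endothelium (-2.17, adjusted p = 0.00132, from 4 p53LKO HCC because a spot was flagged on the fifth array), and the ligand Vegfb (-1.12, adjusted p = 0.00849). In the same comparison 7 of 10 stellate cell and fibroblast markers and 1 of 10 endothelial markers (Vwf, 1.46) rose and 5 of 10 hepatocyte markers fell, and their part in these changes was not tested.

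Car9, the membrane carbonic anhydrase that removes acid from hypoxic tumor cells and is among the most specific HIF-1 targets, was higher in ICC. Its means were -2.03 ± 0.41 in p53f/f HCC, -2.60 ± 0.40 in p53LKO HCC and -1.28 ± 0.38 in ICC (SD, n = 5 each), and the probe lies at chr4:43526518-43526577 of mm9. The ICC had levels of -1.48 in mouse 3731, -1.24 in 3733, -0.67 in 3976, -1.35 in 3977 and -1.67 in 5283. The p53LKO HCC had -2.08 in mouse 3731, -2.64 in 3733 and -2.44 in 3975, and in the lower row -3.19 in 3976 and -2.64 in 5283, the 2 arrays on which the probe was not well above background. The p53f/f HCC had -2.44 in mouse 3681, -1.33 in 3715, -2.13 in 3716, and -2.09 and -2.13 in the tumors of mouse 3717. All 5 ICC lay above all p53LKO HCC, and the p53f/f HCC of mouse 3715 lay within the range of the ICC.

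The rise of Car9 in ICC against HCC of p53LKO mice was 2.49-fold, with a log2 fold change of 1.32 (SE 0.24, 95% confidence interval 0.78 to 1.86, limma adjusted p = 0.00179; exact permutation p = 0.00794). It was 1.16 within slide 2 (adjusted p = 0.019). On slide 1 and in the lower row the only p53LKO HCC were the 2 arrays without a Car9 signal well above background, so that no fold change is given there. With normexp background correction the difference over all 10 arrays was 0.74, under 2-fold, at an adjusted p of 0.0023. Against p53f/f HCC the log2 fold change was 0.74 (SE 0.25, limma adjusted p = 0.0397), and with the loss of p53 in HCC it was -0.57 (SE 0.25, adjusted p = 0.103). The summed biliary markers, 6.11 to 7.19 in ICC against 4.02 to 4.81 in p53LKO HCC, and the stellate cell and fibroblast markers, 8.97 to 9.80 against 6.27 to 8.02, were higher in the same tumors as Car9 and Egln3, and their part in both rises was not tested.

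Bnip3, a mitochondrial outer membrane protein that triggers mitophagy, had levels of 3.10 to 4.14 in ICC, 4.21 to 4.89 in p53LKO HCC and 3.99 to 5.27 in p53f/f HCC. All 5 ICC lay below all p53LKO HCC. The log2 fold change of -0.69 (SE 0.23, limma adjusted p = 0.0291; exact permutation p = 0.00794) was under 2-fold, as were those of the other probes with -0.73 and -0.71. With quantile normalization the value of the brightest probe was -0.25 (adjusted p = 0.39). Against p53f/f HCC it was -0.83 (adjusted p = 0.0344), and with the loss of p53 -0.14 (adjusted p = 0.68). Bnip3 and Car9 are both textbook HIF-1 targets, and their values in ICC against HCC lay on opposite sides of 0.

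Ndrg1, a cytoplasmic protein that is induced by hypoxia, by loss of iron and by differentiation and is also listed among p53-responsive genes, was the member with the largest difference. The means were 3.07 ± 1.04 in p53f/f HCC, 5.35 ± 0.36 in p53LKO HCC and 5.33 ± 0.61 in ICC (SD, n = 5 each), from a probe at chr15:66761057-66761116 of mm9. The p53f/f HCC had 2.64 in mouse 3681, 4.64 in 3715, 3.43 in 3716, and 2.80 and 1.85 in the tumors of mouse 3717. The p53LKO HCC had 5.61 in mouse 3976, 5.62 in 5283, 5.30 in 3731, 5.45 in 3733 and 4.76 in 3975. The ICC had 4.67 in mouse 3731, 5.45 in 3733, 5.49 in 3976, 4.84 in 3977 and 6.20 in 5283. All 10 p53LKO tumors lay above all 5 p53f/f tumors, the closest pair being the ICC of mouse 3731 and the p53f/f HCC of mouse 3715.

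The rise of Ndrg1 with the loss of p53 in HCC was 4.85-fold, with a log2 fold change of 2.28 (SE 0.44, 95% confidence interval 1.31 to 3.24, limma adjusted p = 0.00286; exact permutation p = 0.00794). It was 2.24 within slide 1, 3.32 within slide 2, where a single p53f/f HCC leaves no test, and 2.10 within the upper row (adjusted p = 0.0202). With the mean of the tumors of mouse 3717 in place of both it was 2.09. Against p53f/f HCC the ICC had a log2 fold change of 2.26 (SE 0.48, limma adjusted p = 0.00529; exact permutation p = 0.00794), 4.79-fold. That log2 fold change was 1.29 on slide 1, with a single ICC, and 3.65 on slide 2, with a single p53f/f HCC, and neither has a test. Between ICC and HCC of p53LKO mice it was -0.02, with a 95% confidence interval of -0.67 to 0.63 that leaves out a 2-fold difference with this scaling (0.50 with quantile normalization). The summed neutrophil markers did not overlap between the HCC groups either (8.17 to 8.58 in p53f/f, 7.06 to 7.48 in p53LKO), with 2 of 7 tested markers called higher and 1 lower in p53LKO HCC, and their part in the Ndrg1 difference was not tested.

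Ankrd37, a small ankyrin repeat protein with a hypoxia-responsive promoter, had no call. Its means were -0.79 ± 0.90 in p53f/f HCC, -1.11 ± 1.34 in p53LKO HCC and -0.81 ± 0.53 in ICC (SD, n = 5 each). The wide spread of the p53LKO HCC came from the tumor of mouse 5283, with a level of -3.34 and not well above background, while the other 4 ran from -1.07 to 0.20. The log2 fold change with the loss of p53 was -0.32 (95% confidence interval -1.70 to 1.06), an interval that holds a 2-fold change in either direction.

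Of 16 tested NDRG, BNIP and carbonic anhydrase relatives of the 10 genes only Car15 rose with the loss of p53 (log2 fold change 1.41, adjusted p = 0.0165, and 0.36 at the least under the other scalings), and Ndrg2, Ndrg3 and Ndrg4 were not called. Of the same 16, 2 rose and 6 fell in ICC against HCC of p53LKO mice. Ndrg4 (2.98, adjusted p = 0.000898) and the cytosolic carbonic anhydrase Car13 (1.70, adjusted p = 0.0224) rose. The largest falls were those of Car14 (-2.78, adjusted p = 0.000145), a membrane carbonic anhydrase, and Car5a (-2.43, adjusted p = 0.00822), the mitochondrial enzyme of hepatocytes that supplies bicarbonate to the urea cycle. The level of Ndrg2 also fell (-1.75, adjusted p = 0.0182). In the same comparison 5 of 10 hepatocyte markers fell, with a median log2 fold change of -1.60 over the 10, and their part in these falls was not tested.

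The core of the HIF-binding motif stands in the promoters of Car9 and Egln3, the genes that rose in ICC, and also in those of Adm and Bnip3, whose values in ICC lay on opposite sides of 0. These stretches are shown so that the letters can be compared. The stretches are from RefSeq (GRCm38.p6), read 5′ to 3′ on the strand of the gene, and capitals mark ACGTG or GCGTG or their reverse complements CACGT and CACGC. For Car9, chr4:43506993-43507025 on the plus strand is given, for Egln3, chr12:54204084-54204118 on the minus strand, for Adm, chr7:110627552-110627622 on the plus strand, and for Bnip3, chr7:138909522-138909638 on the minus strand.
Car9: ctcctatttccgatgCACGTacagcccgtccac
Egln3: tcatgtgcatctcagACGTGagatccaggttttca
Adm: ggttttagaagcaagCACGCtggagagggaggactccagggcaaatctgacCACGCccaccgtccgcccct
Bnip3: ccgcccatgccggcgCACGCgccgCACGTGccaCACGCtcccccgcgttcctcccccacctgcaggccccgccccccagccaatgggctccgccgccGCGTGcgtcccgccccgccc
The CACGTG of Bnip3 reads the same on both strands and holds an ACGTG on each, which makes 5 matches in its window.

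Of the 10 genes 8 have a promoter entry in the table, and all 8 hold ACGTG or GCGTG on either strand within the 250 bases before the start (Vegfa in 1 of its 2 entries). Among all 32851 promoters of that length 16.6% hold ACGTG, 28.2% hold GCGTG and 38.6% hold either. Genes that were not called in any comparison, such as Hif1a and Ankrd37, hold the letters as well. A match describes the letters of the window and says nothing about binding in these tumors. The promoters of Epas1 and Ndrg1 were not analysed here.

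The wider pathway was described with lists of HIF-related genes that do not include the 10 genes. Among 16 tested genes for HIF subunits and oxygen sensing, 1 rose with the loss of p53 and none fell, while the percentile over probes bright on each array gave none higher and 1 lower, and their median gave no call. The riser was Cul2, the scaffold of the ubiquitin ligase that holds Vhl, with a log2 fold change of 1.18 (adjusted p = 0.00327), and it fell in ICC against HCC of p53LKO mice (-1.07, adjusted p = 0.00264). That fall was called under only 1 of the 5 other scalings. Vhl itself rose in ICC against p53f/f HCC (1.24, adjusted p = 0.001). 

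Among 20 genes of glucose uptake and glycolysis, 4 rose and 1 fell with the loss of p53. The lactate exporter Slc16a3 rose most (log2 fold change 1.97, adjusted p = 0.00535), followed by the hexokinase Hk2 (1.50, adjusted p = 0.0476) and the enzymes Eno1 (1.20) and Aldoa (1.11), while the neuronal enolase Eno2 fell (-1.20, adjusted p = 0.00283). In ICC against HCC of p53LKO mice 3 rose and 3 fell, a split that depended on the scaling. It was 5 higher and 1 lower with the percentile, and 4 higher and 1 lower with the median, over probes bright on each array, 4 higher and 1 lower with quantile normalization, and 3 higher and 4 lower with normexp. Eno2 (2.28, adjusted p = 0.000121, and 1.14 at the least under the other scalings), Pfkfb3, the enzyme that makes the main activator of glycolysis (1.90, adjusted p = 0.00222), and Slc16a3 (1.55, adjusted p = 0.0183) rose. Pdk1, which keeps pyruvate out of the mitochondria (-1.44, adjusted p = 0.00131), Gpi1 (-1.17) and Pgam1 (-1.12) fell. The median of the list in this comparison was -0.28, beside -0.18 for all genes, and lay above 0 with quantile normalization (0.10) and with that percentile (0.089). With these scalings the median of all genes was -0.099 and 0.19.

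Among the targets that act on vessels, 3 of 11 tested in p53LKO against p53f/f HCC were called higher and none lower, among them the platelet-derived growth factor Pdgfb (log2 fold change 1.99, adjusted p = 0.000775) and the lipase inhibitor Angptl4 (1.61, adjusted p = 0.0452). For ICC against HCC of p53LKO mice, 4 of 11 tested rose and none fell, while normexp gave 1 lower. Stc2, a secreted glycoprotein of the stress response, had a log2 fold change of 4.83 (adjusted p = 0.000122; 3.37 at the least under the other scalings). Ptgs2, the inducible cyclooxygenase, was well above background on none of the p53LKO HCC arrays and was at least 8.31-fold higher in ICC with this scaling, while its fitted log2 fold change of 4.13 went down to 1.70 under the other scalings. Nos2 (1.80) and the urokinase receptor Plaur (1.58) were the others. In the same comparison 7 of 10 stellate cell and fibroblast markers and 2 of 10 macrophage markers (Lyz2, 2.99, and Itgam, 1.56) were called higher, and their part in these rises was not tested.

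Targets of the matrix and of pH were called higher in 3 of 10 with the loss of p53, in 4 of 11 in ICC against HCC of p53LKO mice and in 8 of 11 in ICC against p53f/f HCC. Against HCC of p53LKO mice the count was 7 with the percentile or the median over probes bright on each array and 5 with quantile normalization, while it stayed at 8 against p53f/f HCC under each of the 5 other scalings. The collagen prolyl hydroxylase P4ha2 (log2 fold change 2.42, adjusted p = 0.00794) and the lysyl oxidase relative Loxl2 (2.07, adjusted p = 0.00422) rose with the loss of p53, while Car2, a cytosolic carbonic anhydrase, fell (-1.21, adjusted p = 0.0151). In ICC, Plod2, which hydroxylates collagen lysines, rose against HCC of p53LKO mice (3.02, adjusted p = 0.000371, and 2.03 at the least under the other scalings), as did Ctgf (2.53, adjusted p = 0.00105). Lox was also called higher, but its probe was well above background on 1 of 5 HCC arrays and entered the test through the ICC alone, so that the size is uncertain (4.64, and 2.19 at the least under the other scalings). Fibroblasts also make these proteins, and 7 of 10 stellate cell and fibroblast markers rose in the same comparison. Their part in the list was not tested.

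Of the targets of mitophagy, growth and stress, 17 tested, 5 fell and 1 rose in ICC against HCC of p53LKO mice. The split depended on the scaling, with 3 lower and 4 higher when the percentile, and 4 lower and 3 higher when the median, was taken over probes bright on each array, and 3 lower and 2 higher with quantile normalization. Gbe1, the glycogen branching enzyme (log2 fold change -3.68, adjusted p = 0.000107), Selenbp1 (-2.41, adjusted p = 0.0014), Insig2 (-1.57), Fam162a (-1.23) and Rora (-1.07) fell and the kinase Pim1 rose (1.37, adjusted p = 0.000425). In the same comparison 5 of 10 hepatocyte markers fell, as did 6 of 6 tested red blood cell markers, and their part in the list was not tested. Only Wsb1 of this list was called with the loss of p53 (-1.05, adjusted p = 0.0344).

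Of the iron genes with HIF links, the transferrin receptor Tfrc rose with the loss of p53 (log2 fold change 1.49, adjusted p = 0.00217) as the only call among 6 tested. In ICC against HCC of p53LKO mice the duodenal ferric reductase Cybrd1, a target of HIF-2 in the gut, was called higher, but its probe was well above background on 1 of 5 HCC arrays and entered the test through the ICC alone, so that the size of the rise is uncertain (6.98, and 4.82 at the least under the other scalings), and the iron hormone hepcidin, Hamp, rose as well (3.12, adjusted p = 0.00755). The iron exporter ferroportin, Slc40a1 (-2.26, adjusted p = 0.000735), and Tfrc (-1.16, adjusted p = 0.0124) fell. Epas1 was lower and Cybrd1 higher in the same ICC. In this comparison 5 of 10 hepatocyte and 6 of 6 tested red blood cell markers fell, while 4 of 7 tested biliary markers rose and 1 fell and 7 of 10 stellate cell and fibroblast markers rose, and their part in the changes of the iron genes was not tested.

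The counts of all lists stand against 5.22% of genes called higher and 10.7% lower with the loss of p53, 13.1% and 15.2% in ICC against HCC of p53LKO mice, and 10.9% and 11.9% in ICC against p53f/f HCC. In the last of these, 6 of 20 glycolytic genes rose and 1 fell, led by Slc16a3 (log2 fold change 3.52, adjusted p = 1.73e-05), and 5 of 12 vessel genes rose and none fell. Stc2 was among these, with a size that is uncertain (6.08, and 3.39 at the least under the other scalings), since its probe was well above background in 2 of 5 p53f/f HCC and entered the test through the ICC alone. In this comparison 2 of 17 genes of mitophagy, growth and stress rose and 4 fell, 2 of 16 relatives rose and 4 fell, 2 of 7 iron genes rose and 2 fell, 3 of 12 ligands and receptors rose and 1 fell, and 1 of 16 genes of oxygen sensing rose. The balance depended on the scaling, and with spike-in scaling the median over all genes was 0.57. Falls that went under 2-fold with another scaling included Ndrg2 (-0.93), Car14 (-0.89), Rora (-0.97) and Insig2 (-0.85), while Gbe1, Selenbp1 and Car8 stayed called under each. Of the markers, 7 of 10 for hepatocytes and 4 of 7 for red blood cells fell, 7 of 10 for stellate cells and fibroblasts and 5 of 10 for macrophages rose, and 4 of 8 biliary markers rose and 1 fell, and their part in the counts was not tested. With the loss of p53, 1 of 10 stellate cell and fibroblast markers rose (median log2 fold change 0.86 over the 10), while 1 of 10 hepatocyte and 2 of 10 endothelial markers fell. For macrophages 1 of 10 rose and 1 fell, and for neutrophils 2 of 7 rose and 1 fell. The part of these markers in the lists was not tested. Median log2 fold changes with the loss of p53 were highest for the vessel list (0.68), the matrix and pH list (0.65), the iron list (0.51) and the glycolytic list (0.42), beside 0.07 over all genes. The other medians were 0.29 for the relatives, 0.24 for mitophagy, growth and stress, 0.10 for ligands and receptors and near 0 for oxygen sensing. For ICC against HCC of p53LKO mice the medians were 0.92 for matrix and pH, 0.30 for vessels, -0.09 for oxygen sensing, -0.18 for ligands and receptors, -0.42 for iron, -0.58 for mitophagy, growth and stress and -0.78 for the relatives, beside -0.18 over all genes. With the percentile over probes bright on each array the medians of oxygen sensing (0.28) and of ligands and receptors (0.19) lay above 0, where the median over all genes was 0.19 as well.

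**Figure D4:**
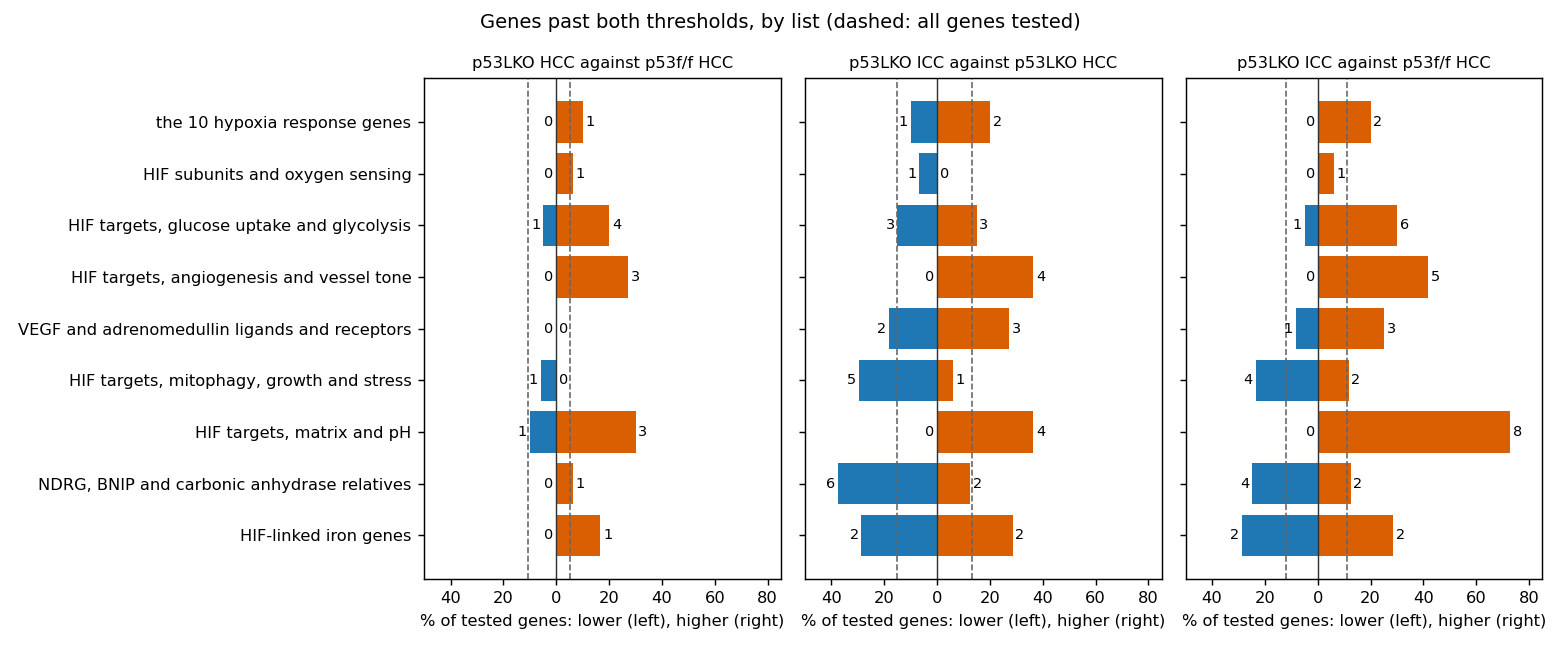
Share of the tested genes of each HIF-related list that were called lower (bars to the left) or higher (bars to the right) in the 3 comparisons, in percent, with the number of genes beside each bar and the share over all tested genes as dashed lines. The longest bar is that of 8 matrix and pH genes called higher in ICC against p53f/f HCC.

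These directions are relative to the 75th percentile of each array. Scaled to the spike-in probes instead, the median of all genes shifted to 0.80 with the loss of p53 and to 0.57 in ICC against p53f/f HCC, and it stayed at -0.16 in ICC against HCC of p53LKO mice. With that scaling the values of Vegfa, Car9, Bnip3 and Ankrd37 with the loss of p53 turned from below to above 0, none of which was called on either scale. None of the called genes of these lists changed sign under the 5 other scalings. Calls were lost under at least 1 of them for Cul2, Hk2, Aldoa, Eno1, Eno2, Angptl4, Wsb1, P4ha1, Car2 and Car15 with the loss of p53, for Cul2, Gpi1, Pgam1, Vegfb, Fam162a, Rora, Pim1, Tfrc, Ndrg2 and Bnip1 in ICC against HCC of p53LKO mice, and for Hk2, Eno2, Pdk1, Flt4, Insig2, Rora, Gys1, Slc40a1, Cp, Ndrg2, Car7 and Car14 in ICC against p53f/f HCC. List counts with the loss of p53 moved most with spike-in scaling, which gave 13 glycolytic genes, 8 of mitophagy, growth and stress, 7 of the vessels, 6 each of oxygen sensing, matrix and pH and the relatives, and 4 each of ligands and receptors and of iron as higher, and none as lower. The percentile over probes bright on each array gave 1 glycolytic gene as higher and 1 as lower.

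After removal of the group means, the 10 genes varied together only loosely from tumor to tumor. Of 45 pairs, 31 had a Pearson correlation above 0 over the 15 arrays, with a median of 0.20. The highest value was 0.68 for Adm and Bnip3, followed by 0.57 for Epas1 and Vegfa, and the lowest was -0.50 for Hif1a and Vegfa. These are descriptions, since the arrays share slides, rows, mice and a common scaling. Among 11523 other genes, those most like a member were Rrp36 for Ndrg1 (0.94), Lhb for Adm (0.91), Il20rb for Epas1 (0.90), Colec11 for Bnip3 (0.89), Ccdc88b for Car9 (0.87), Fam129b for Vegfa (0.86), Hat1 for Egln3 (0.85), Palm for Egln1 (0.84), Commd10 for Hif1a (0.83) and Pfkl for Ankrd37 (0.81).

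**Figure D5:**
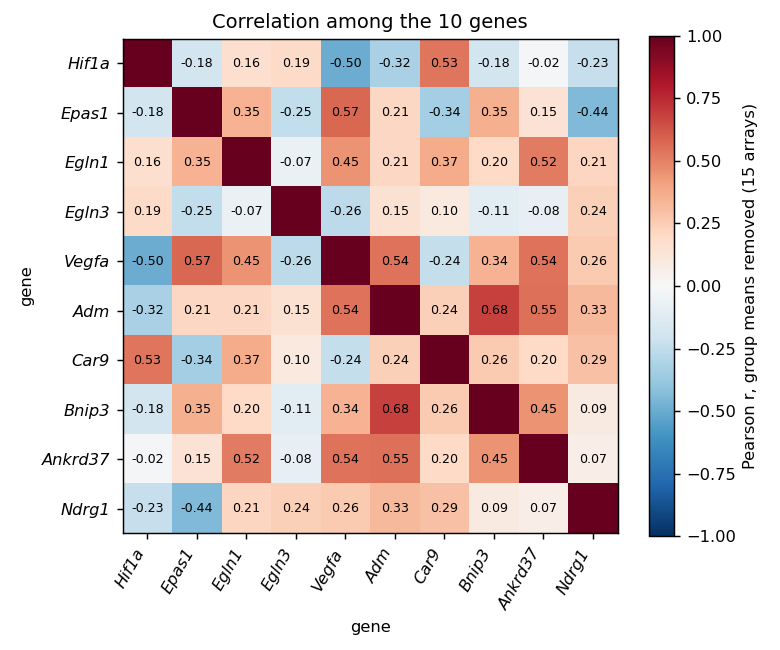
Pearson correlation of each pair of the 10 genes over the 15 arrays after the mean of each group was subtracted. Adm and Bnip3 have the highest value, 0.68, and Hif1a and Vegfa the lowest, -0.50.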

How the data were processed

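The authors extracted the arrays with Agilent Feature Extraction 10.7.3.1 (version from the submitters' processing notes) and deposited scanner output, where the processed signal of a spot is its intensity with background subtracted and spatial trends removed. Their deposited table of log2 values, centred per probe, served as an alternative for the HCC comparison. In R 4.3.3 the log2 processed signal was averaged over the unflagged spots of a probe, and the 75th percentile of the non-control probes of its array was subtracted. Probes that at least 3 arrays of either group measured well above background were compared with limma 3.58.1 on the 10 arrays concerned, with Benjamini-Hochberg adjustment over all probes. Exact permutation tests were 2-sided and took each tumor as a unit, also where tumors shared a mouse. A gene not well above background in a whole group has its fold change only as a bound. The fit was tested on simulated data, and plots were made with matplotlib 3.10.9 under Python 3.11.15. The 10 genes and all lists were chosen with earlier results of these data known. Named are the 10 genes, called genes of the lists, and the gene most like each of the 10. Alternatives changed the background correction, scaling, filter, test, probe or block (slide, row, mouse) or left out a tumor. No sample was dropped. Probe positions are those of mm9 in the array files, and positions within transcripts were not analysed here. P-values measure the spread between tumors.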

Additional observations from a re-analysis of the deposited data

How the results depend on the processing

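Called values kept their direction under every alternative run. Changing the test or the filter, or fitting all arrays together, leaves the fold change as it was, so no direction could turn there. The setting with no limit on the fold change keeps every call by construction and is among the alternatives counted below. Ndrg1 was called in 29 of 29 tested alternatives with the loss of p53 and in 25 of 25 in ICC against p53f/f HCC, and Egln3 in 26 of 26 in the latter. Between ICC and HCC of p53LKO mice, Epas1 was called in 28 of 31, Car9 in 27 of 28 and Egln3 in 27 of 30. The Car9 tally includes the lower row, whose HCC had no Car9 signal well above background. Leaving out 1 tumor at a time moved the log2 fold changes between -1.30 and -1.12 for Epas1, 1.17 and 1.45 for Car9, and 0.98 and 1.39 for Egln3, whose call went without the HCC of mouse 3976. Settings within a slide that leave 1 array in a group have no test. Where values below changed side or call, the cause was not tested.

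For the mice that gave an HCC and an ICC, the deviations of their arrays from the group means correlated at -0.18 to 0.13, against -0.24 to 0.29 for tumors of different mice. With the mouse as a replicate block the counts stayed at 2 higher and 1 lower, and Epas1 was at -1.20 (adjusted p = 0.0178), Car9 at 1.38 (adjusted p = 0.0356) and Egln3 at 1.10 (adjusted p = 0.0247). The HCC of mice 3976 and 5283 in that block had no Car9 signal well above background, so the size for Car9 is uncertain. Bnip3 was at -0.78 (adjusted p = 0.0538) and Adm at 0.87 (adjusted p = 0.171).

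With the loss of p53, none of the values that turned was called on either side. Scaling to the 75th percentile over only those probes that every array measured well above background gave -0.020 for Hif1a, -0.0022 for Epas1, -0.23 for Adm and -0.20 for Egln3, and scaling to their median gave -0.17 for Adm and -0.14 for Egln3. Spike-in scaling gave 0.51 for Vegfa, 0.16 for Car9, 0.60 for Bnip3 and 0.42 for Ankrd37. Normexp gave -0.051 for Egln1. Within slide 1 Hif1a was at -0.16, Adm at -0.13 and Egln3 at -0.44, with the slide as a block Adm was at -0.065, and in the upper row or with the row as a block Ankrd37 was at 0.22, and within slide 2, with no test, at 0.65. The mean over probes gave -0.013 for Egln3, the mean of the tumors of mouse 3717 gave -0.042, its other probe -0.073, and the second Epas1 probe -0.41. Leave-one-out ranges were -0.25 to 0.15 for Adm, -0.18 to 0.23 for Egln3, -0.30 to 0.023 for Bnip3 and -0.65 to 0.24 for Ankrd37, which was above 0 without the HCC of mouse 5283. The count of genes called higher was 2 with quantile normalization, spike-in scaling or no limit on the fold change, Egln1 being the second. Over the whole array, 1312 probes were called higher and 5774 lower, against 9813 and 2313 with spike-in scaling, 630 and 7941 with the percentile of probes bright everywhere, 1542 and 3710 with quantile normalization, 930 and 1962 with normexp, 384 and 3127 within slide 1, 3652 and 8213 with no limit on the fold change, and 1003 and 847 among probes well above background on every array.

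For ICC set against HCC of p53LKO mice, Ndrg1 turned to 0.50 with quantile normalization, 0.35 and 0.19 with scaling to that percentile and to that median, and 0.33 within slide 2, and ranged from -0.24 to 0.15 with 1 tumor left out. Hif1a was at -0.030 with the slide as a block and -0.27 within slide 2 (left out, -0.12 to 0.13), Ankrd37 at -0.23 within slide 2 (left out, -0.26 to 0.62), and Vegfa at -0.092 as the mean of its probes and -0.43 with the other probe. The count called higher was 1 with normexp, with a filter for probes well above background on every array, within slide 2 and in the Mann-Whitney test, 3 with the percentile or the median of probes bright everywhere (Adm being the third), and 1 to 3 with 1 tumor left out. The count called lower was 0 with the percentile of probes bright everywhere, 2 with the slide as a block, 3 with no limit on the fold change, and 1 to 2 with 1 tumor left out. The further gene under the block and with a tumor left out was Egln1, whose ICC signal was not well above background, so that it has no measured fold change there. Over the whole array 4225 probes were called higher and 4390 lower, against 6241 and 2253 with the percentile and 5136 and 3015 with the median of probes bright everywhere, 2665 and 2949 with normexp, 5870 and 8894 with no limit on the fold change, and 1467 and 2866 among probes well above background on every array.

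In ICC against p53f/f HCC, Ankrd37 turned to 0.0100 with normexp, 0.0036 with quantile normalization, 0.10 with the percentile of probes bright everywhere, 0.73 with spike-in scaling, 0.11 with the slide as a block, 0.42 within slide 2 (no test) and 0.0034 with the mean of the tumors of mouse 3717 (left out, -0.30 to 0.27). The fitted difference of Egln1 was 0.42 with spike-in scaling, again from ICC signal not well above background. Vegfa was at -0.015 with the slide as a block, -0.29 as the mean of its probes and -0.60 with the other probe (left out, -0.14 to 0.12). The count called higher was 4 with spike-in scaling or no limit on the fold change, 3 with the percentile of probes bright everywhere, and 2 to 3 with 1 tumor left out. The count called lower was 2 with no limit on the fold change, and 0 to 1 with 1 tumor left out, where Epas1 passed the limit without the p53f/f HCC of mouse 3715 (-1.13) or 3716 (-1.14), or without the ICC of mouse 3976 (-1.04), 3977 (-1.01) or 5283 (-1.06). Over the whole array 2652 probes were called higher and 4285 lower, against 7331 and 930 with spike-in scaling, 3027 and 3213 with the percentile of probes bright everywhere, 1803 and 1947 with normexp, 1629 and 2071 with the slide as a block, 4088 and 8058 with no limit on the fold change, 1899 and 1858 among probes well above background on every array, and 14655 and 4477 with no filter. Adm was called in 7 of 25 alternatives here and in 4 of 29 against HCC of p53LKO mice. The HCC columns of the authors' deposited table, used for the comparison of HCC alone, correlated with the rebuilt values at 0.999948 or more.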
